A study of Mus musculus with 38 samples.

Results

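The data followed brown adipose tissue of C57BL/6J mice that were kept on a low fat control diet (LFC), from the first days of feeding to week 18. The series holds 38 arrays, and the 10 LFC arrays were taken by their diet label. Of these, 4 arrays (Day 6, Day 10, Day 14 and Week 0) formed the early stage, 3 (Weeks 3, 6 and 9) the middle stage and 3 (Weeks 12, 15 and 18) the late stage. According to the labels, mice entered the study after weaning at 3 to 4 weeks of age, and the low fat diet drew 10% of its calories from fat. The 10 arrays of mice on a high fat, high sucrose diet (HFC, 60% of calories from fat) at the same time points served for comparison. Each labelled time point had 1 LFC array, so the time points of a stage served as its replicates. The sources used here do not say whether an array held RNA of 1 mouse or of several, and Day 14 and Week 0 stand for the same day on the diet. Age and days on the diet ran together, and cannot be told apart.

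Brown adipose tissue produces heat. Its adipocytes hold many mitochondria whose inner membrane carries UCP1, which lets protons return without ATP synthesis. After weaning, the young depot still grows: precursors divide, matrix is laid down, and genes of fetal and early postnatal growth, several of them imprinted, are still active. In adult mice most of these programmes are known to be quiet, while resident immune cells remain.

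The values are log2 signals relative to the 75th percentile of all probes on the same array, so a difference of 1 is a factor of 2 between arrays. That percentile ran from 148 to 1209 intensity units over the 10 LFC arrays, and 4 arrays lay above 600 (Week 0, Week 3, Week 9 and Week 12). Between the stages the log2 percentile did not separate (early mean 8.52, late mean 8.18, exact permutation test over 35 arrangements, two-sided, p = 0.686, smallest possible p 0.0286). The arrays held 54.1% to 70.4% of probes well above background. The pair of arrays from the same day on the diet, Day 14 and Week 0, differed by a median of 1.1 log2 over genes, and 11294 genes differed at least 2-fold between them. That was more than between Day 6 and Day 10 (median 0.40, 3635 genes) or between Week 15 and Week 18 (0.45, 4707 genes). The median difference between the late and early means was 0.33. Means over 3 and 4 arrays vary less than single arrays, so this value is not on the same footing.

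The labelled tissue was checked against its defining genes. The thermogenic uncoupler Ucp1 was well above background on all 10 LFC arrays, with values from 3.38 to 6.70, and the transcription factor of brown identity Prdm16 was so on all 10 as well (1.11 to 2.93). Of 8 brown adipocyte markers, 7 were well above background on every LFC array, and the thyroid hormone activating enzyme Dio2 on 9 of 10. Of 7 white fat markers, 3 were well above background on every LFC array. Skeletal muscle markers varied most among the other cell types, with a summed level of -0.06 to 5.05 on the early and 2.38 to 8.45 on the late arrays. In tissue extracts, fewer cells of a type and less RNA per cell cannot be told apart.

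The main comparison asked which genes differed between late and early LFC arrays. Among 20959 genes, none passed in limma after Benjamini-Hochberg adjustment (0 genes, 0% of those tested, smallest adjusted p 1 after rounding). Without adjustment 730 genes had a p under 0.05, where 1048 would be 5% of those tested. Of these, 460 were lower late (2.19% of genes tested) and 270 were higher late (1.29%). With array weights, limma called 53 genes. The late values lay wholly below the early values in 536 genes (2.56%) and wholly above them in 483 (2.3%). The median standard error of a late minus early difference was 0.60 log2, which sets how large a difference had to be. The genes described next are therefore those with the smallest p values, or members of gene lists, and none of them passed in this comparison.

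Of the 20 named genes with the smallest p values, 4 were higher late and 16 lower late, and in each of them the early and late arrays did not overlap. The 4 higher genes were immune and steroid genes. Immunoglobulin heavy chain, listed as Igh, had values of 0.43, 1.29, 0.56 and -0.14 on the early arrays. It stood at 3.11, 3.86 and 5.88 on the middle arrays and at 5.89, 4.47 and 3.06 on the late ones. All middle and late arrays were thus above all early ones, and the late minus early difference was 3.94 (SE 0.79, a factor of 15.3). Probes of this gene cannot separate near-identical immunoglobulin segments.

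Igj, now Jchain, encodes the joining chain of secreted immunoglobulin A and M. Its early values were -3.40, -1.55, -2.75 and -4.46, its middle values -0.96, -0.42 and 2.25, and its late values 2.48, 1.29 and 1.0. The difference was 4.63 (SE 0.88, a factor of 24.8), the middle stage lay between the other stages, and no array of a later stage reached down to the early range. The B cell attracting chemokine Cxcl13 had early values of -3.54, -3.58, -4.43 and -4.35 and middle values of -2.88, -2.82 and -2.88. Its late values were 0.31, 0.26 and -2.30, so Weeks 12 and 15 stood apart from all other LFC arrays. The difference was 3.40 (SE 0.62).

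Immunoglobulin gene names were then gathered by name alone, a choice made after these values were seen. Of the 10 tested, Igh, Igj and Ighg were well above background on all 10 LFC arrays, and Ighg had a difference of 1.71. The light chain name Igk-V8-16 was well above background on 1 early and 2 late arrays. Such names passed the filter on dim probes partly through the arrays where they were high, so no count over the 10 is given. Igkv12-38 had a difference of -0.18. The summed level of 8 markers of T and B lymphocytes was -1.92 to 0.74 on the early and -0.42 to -0.0030 on the late arrays, and 2 of the 8 were well above background on all 10 LFC arrays. In the lymphocyte list, the cytotoxic granule protease Gzma had a difference of -2.75 (SE 0.97), and of -0.37 under normexp, another background correction. The list's median was -0.38 over 19 genes with 14 lower, and 0.57 with 4 lower under normexp.

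Sult1e1, the sulfotransferase that inactivates estrogens, was the last of the 4. Its early values were -5.15, -5.25, -5.95 and -5.46, and its late values -1.84, -2.41 and -3.95. Week 3 stood at -2.99 and Weeks 6 and 9 at -4.63 and -4.68. The difference was 2.72 (SE 0.59). Only 1 of 4 early arrays and 2 of 3 late arrays were well above background for this probe, so the early level is close to the limit of measurement.

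**Figure D1:**
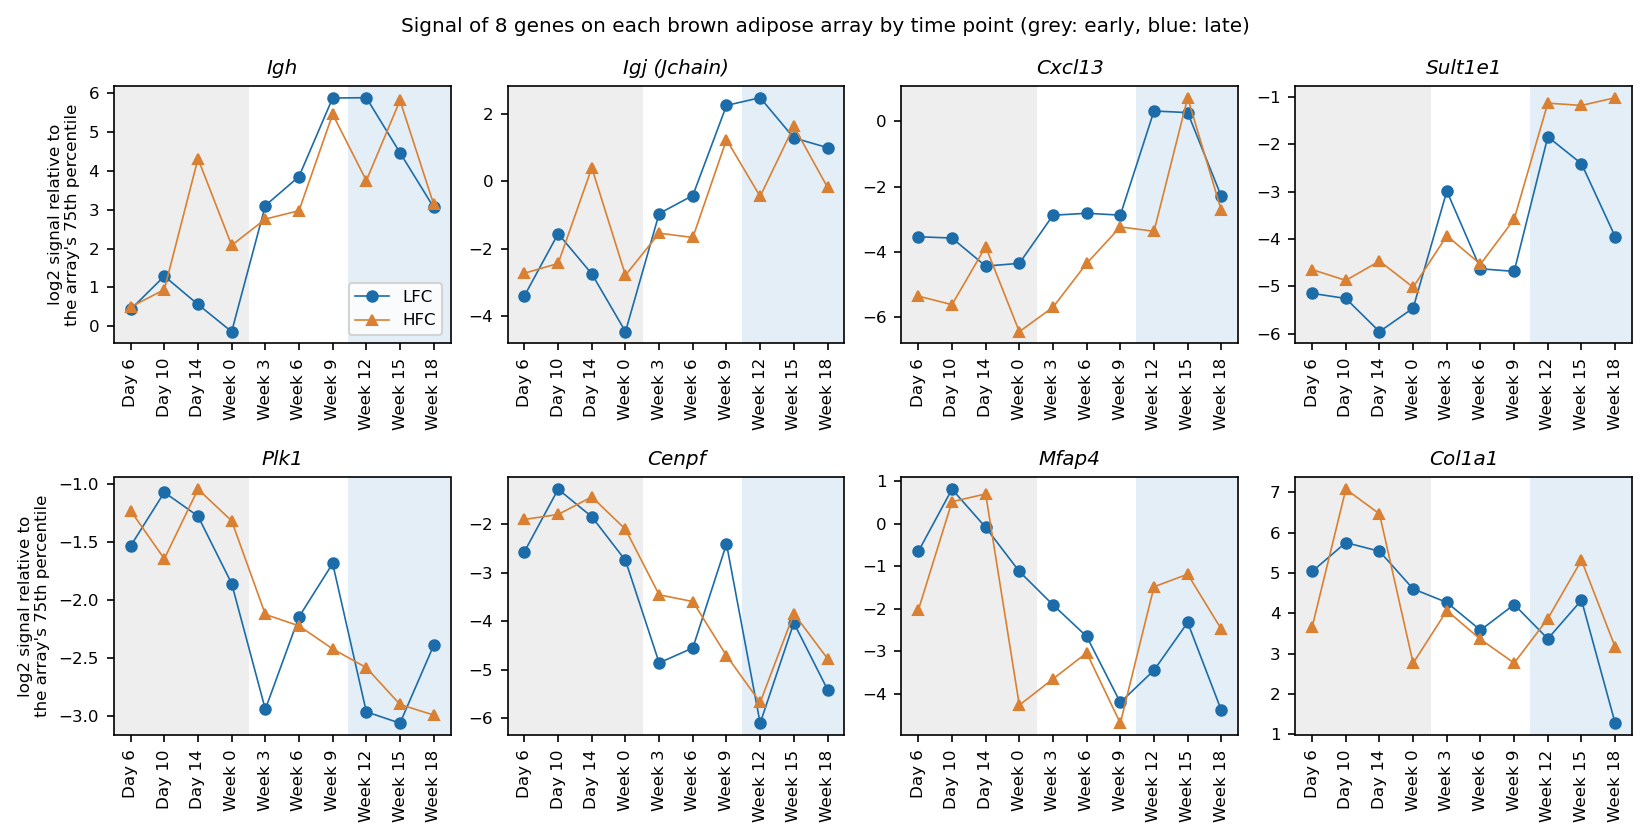
Signal of 8 genes on every LFC array (blue circles) and HFC array (orange triangles) in order of time point, as log2 signal relative to the array's 75th percentile, 1 array per point, with the early stage shaded grey and the late stage blue. Igh, Igj, Cxcl13 and Sult1e1 lie higher on the late LFC arrays than on the early ones (differences of 3.94, 4.63, 3.40 and 2.72), and Plk1, Cenpf, Mfap4 and Col1a1 lie lower (-1.37, -3.07, -3.13 and -2.24).

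The 16 lower genes were of several kinds. The matrix glycoproteins Matn4 and Mfap4 were among them. Mfap4, a microfibril protein, stood at -0.65, 0.81, -0.09 and -1.12 early, at -1.91, -2.66 and -4.21 in the middle and at -3.45, -2.33 and -4.40 late. It was below every early array from Week 3 on (difference -3.13, SE 0.71). Matn4, a matrilin of cartilage and other matrix, went from -2.16, -1.78, -1.46 and -3.89 to -4.97, -6.38 and -6.24 (difference -3.54, SE 0.66), and 1 of 3 late arrays was well above background. Cpz, a secreted carboxypeptidase, had a difference of -2.36 (SE 0.55).

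A set of division and DNA repair genes made up another share. These were Spc24 and Cenpf of the kinetochore (-2.42 and -3.07), the checkpoint kinase Bub1b (-2.28), the repair gene Brca1 (-2.24), and the transcription factor Mxd3 (-2.22). Mxd3 was well above background on 0 of 3 late arrays, and set against the detection limit of those arrays it was at least 1.53-fold lower. Genes best known from neurons and axon guidance were also present, with Efnb3 at -2.06 (SE 0.42), Plxnb3 at -2.73 (SE 0.62) and Hpcal4 at -3.0 (SE 0.61). Also among the 16 were Pgbd5 (-2.48), Magee1 (-2.17), the nucleolar kinase Nol9 (-1.40) and the lectin-like receptor ligand Clec2d (-1.58), and not all of the 16 are named here. Clec2d had early values of 3.54, 2.79, 2.91 and 2.62 and late values of 1.69, 1.27 and 1.20.

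Signal close to background limits this group. Of the 16, 14 had fewer than 3 late arrays well above background. With another background correction (normexp, which adds an offset of 50 to every spot), 12 of the 16 took the opposite sign, and Clec2d, Mfap4, Plxnb3 and Cenpf stayed negative (-1.86, -0.94, -0.19 and -0.22). None of the 4 higher genes took the opposite sign, and their differences under normexp were 3.05 for Igh, 2.64 for Igj, 1.83 for Cxcl13 and 1.33 for Sult1e1.

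The cell cycle list holds cyclins, mitotic kinases and replication genes. Of its 29 tested members, 27 were lower late, with a median of -1.16 beside 0.02 over all genes. At an unadjusted p under 0.05, 11 members were lower and 0 higher, beside 2.19% and 1.29% of all genes. In 9 the late arrays lay wholly below the early ones, beside 2.56% of all genes. Members dim on all late arrays, such as Top2a and Aurkb, passed the filter on dim probes through earlier arrays where they were higher. Among all genes tested, 408 were dim on all late arrays and 176 on all early arrays. Counts of lower members, here and in other lists, carry this limit. The level of the list on each array, taken as the median over members relative to the mean of the LFC arrays, was 0.75, 1.1, 1.0 and 0.00 early. It was -1.06, -0.14 and 0.32 in the middle and -1.45, -0.37 and -0.25 late. Week 12 was the lowest array and the Week 9 array lay within the early range, so the course was not even. Ccne2 (0.59), a cyclin, and Bub1 (0.31), a checkpoint kinase, had differences above 0 and are named after their values were seen.

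The mitotic kinase Plk1 was well above background on all 10 LFC arrays. It had values of -1.53, -1.07, -1.28 and -1.86 early and -2.97, -3.06 and -2.39 late (difference -1.37, SE 0.40). Top2a, the topoisomerase that untangles replicated DNA, had a difference of -2.57 (SE 0.64), and Aurkb, a kinase of the chromosomal passenger complex, one of -2.17 (SE 0.54). Both were well above background on 0 of 3 late arrays, which gives bounds of at least 4.11-fold lower for Top2a and at least 1.70-fold lower for Aurkb. Under normexp 15 rather than 27 members were lower, the median was -0.04, and Aurkb (0.49), Top2a (0.20) and Bub1b (0.31) took the opposite sign. With quantile normalization 27 were lower, and with the log2 percentile of the array as a covariate 28 were.

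The promoters of the cell cycle and interferon genes are described because most members of each list shared a sign. In the 250 bases before the annotated start, CCAAT on either strand was found in 20 of 25 cell cycle promoters (80%), beside 34.5% of all 27025 promoters. TTTGAA, the core letters of the cell cycle homology region, was found in 7 of 25 (28%), beside 16.3%. A pair of GAAA motifs with any 2 bases between them, as in interferon response elements, was found in 10 of 16 promoters of the interferon list (62.5%), beside 3.04% of all and 1 of 25 cell cycle promoters. These are matches of letters, not sites of binding. The stretches below are examples that hold a match. Cdca8 is not in the list and is shown because it passed in the fit of both diets described later. In Birc5, Irf7 and Oasl2 the same window of 150 bases held 0 matches. Capitals mark CCAAT, or ATTGG as its reverse complement, in Plk1, Ccnb2 and Cdca8, and the paired GAAA pattern on either strand in Gbp3 and Bst2, where 2 matches overlap. Each stretch holds the 150 bases before the start (RefSeq, GRCm38.p6), 5′ to 3′ in the direction of the gene, at chr7:122159285-122159434 (+) for Plk1, chr9:70421555-70421704 (-) for Ccnb2, chr4:124936918-124937067 (-) for Cdca8, chr3:142559894-142560043 (+) for Gbp3 and chr8:71537473-71537622 (-) for Bst2.
Plk1: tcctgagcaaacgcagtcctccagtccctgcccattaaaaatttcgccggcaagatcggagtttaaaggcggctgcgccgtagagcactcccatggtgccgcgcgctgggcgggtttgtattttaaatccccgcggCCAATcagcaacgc
Ccnb2: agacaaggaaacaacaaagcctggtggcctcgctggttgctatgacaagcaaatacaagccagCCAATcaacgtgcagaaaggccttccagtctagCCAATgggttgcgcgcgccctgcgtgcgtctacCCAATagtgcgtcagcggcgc
Cdca8: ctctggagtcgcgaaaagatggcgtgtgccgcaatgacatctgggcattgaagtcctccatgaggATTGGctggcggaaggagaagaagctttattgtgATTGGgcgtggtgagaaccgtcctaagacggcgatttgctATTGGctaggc
Gbp3: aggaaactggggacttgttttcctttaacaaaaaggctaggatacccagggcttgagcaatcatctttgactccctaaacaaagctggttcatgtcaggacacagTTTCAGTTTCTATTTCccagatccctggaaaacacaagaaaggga
Bst2: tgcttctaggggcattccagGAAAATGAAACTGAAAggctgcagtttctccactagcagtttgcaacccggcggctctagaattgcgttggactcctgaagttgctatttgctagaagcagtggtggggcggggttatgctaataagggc

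Interferon-stimulated genes had the lowest median of the 24 lists. Of 22 members, 21 were lower late, with a median of -1.30. At an unadjusted p under 0.05, 4 were lower and 0 higher, beside 2.19% and 1.29% of all genes. In 5 the late arrays lay wholly below the early ones, beside 2.56% of all genes. Irf7, the interferon regulatory factor that amplifies type I interferon, had early values of 2.08, 1.22, 1.5 and -0.11 and late values of -3.14, -0.83 and -1.46 (difference -2.98, SE 1.13). On the middle arrays it stood at -3.37, 1.55 and -2.71, so Week 6 was as high as the early arrays. The guanylate binding protein Gbp3 had a difference of -1.78 (SE 0.68) and the 2′-5′ oligoadenylate synthetase-like gene Oasl2 one of -2.09 (SE 0.86). Over the array levels of the list, the middle and late arrays above 600 in percentile were lowest (Week 3 -1.92, Week 9 -1.40, Week 12 -1.77). The dim arrays were at 1.46 (Week 6), 0.44 (Week 15) and -0.31 (Week 18). Without Week 12 the list's median was -0.41, and over the 6 dim arrays alone it was -0.52. Under normexp 21 of 22 members were still lower.

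**Figure D2:**
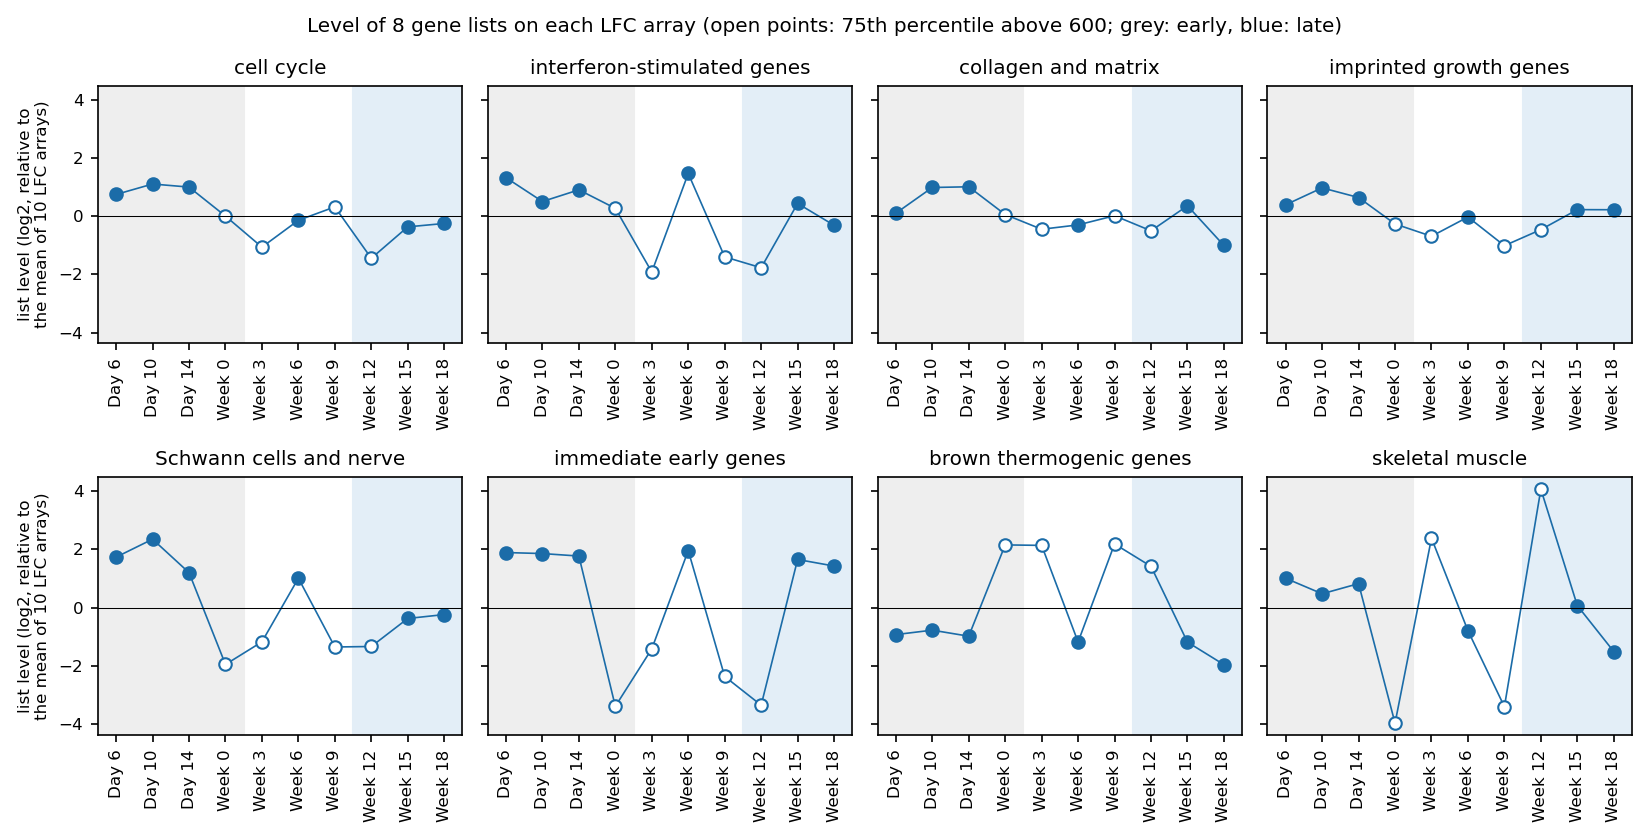
Level of 8 gene lists on each of the 10 LFC arrays, as the median over members of the log2 value relative to its mean over these arrays. Open points mark the 4 arrays with a 75th percentile above 600, and shading marks the early (grey) and late (blue) stages. The cell cycle list lies between 0.00 and 1.1 early and between -1.45 and -0.25 late, and the immediate early list separates the open points (-3.39 to -1.41) from the others (1.43 to 1.96) in every stage.

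Collagen and matrix genes were lower late in 26 of 28 members, with a median of -1.23. At an unadjusted p under 0.05, 8 were lower and 0 higher, beside 2.19% and 1.29% of all genes. Col1a1, the main chain of fibrillar collagen, had early values of 5.04, 5.75, 5.54 and 4.61 and late values of 3.37, 4.33 and 1.28. Week 18 was the lowest, and Week 15 nearly reached Week 0. The difference was -2.24 (SE 0.66), and over the settings tried it ran from -2.91 to -1.39. Fbn1, the microfibril backbone fibrillin, had a difference of -1.32 (SE 0.46), and Col5a2, which takes part in nucleating collagen fibrils, one of -1.45 (SE 0.54). The proteoglycan gene Dcn (0.59) and the protease inhibitor gene Timp1 (0.26) had differences above 0. Without Week 18 the list's median was -0.69. Under normexp 24 of 28 members were lower, with a median of -0.62. The summed level of 5 fibroblast and precursor markers was 5.87 to 6.81 early and 4.91 to 6.87 late.

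Imprinted growth genes were lower late in 15 of 19 tested members, with a median of -0.73. Mest, a paternally expressed gene linked to adipose growth, had values of 0.88, 1.73, 1.26 and -0.46 early and -2.18, 0.01 and -0.75 late, with Week 15 above Week 0 (difference -1.83, SE 0.65). Gnas, which encodes the stimulatory G protein of adrenergic signalling, had a difference of -1.06 (SE 0.37), from 3.08, 3.06, 3.13 and 3.86 early to 2.51, 2.09 and 2.09 late. Gab1, an adaptor of growth factor receptors, had one of -1.13 (SE 0.43), and 0.02 under normexp. At an unadjusted p under 0.05, 4 members were lower and 0 higher, beside 2.19% and 1.29% of all genes. Under normexp 10 of 19 members were lower.

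Schwann cell and nerve genes were lower late in 13 of 13 tested members, with a median of -1.22, but in 0 of them did the arrays separate. Week 0 stood apart from the other early arrays. The list's level was 1.73, 2.35 and 1.20 on Days 6, 10 and 14, and -1.95 at Week 0, below the late levels of -1.33, -0.37 and -0.24. Prx, a protein of myelinating Schwann cells, stood at 1.96, 2.03, 0.47 and -4.36 early and at -4.43, -2.53 and -1.96 late. Pmp22, a peripheral myelin protein, had a difference of -1.55 (SE 0.78), and Cnp, an enzyme of myelin forming cells, one of -2.11 (SE 0.93). The summed Schwann cell markers ran from -0.15 to 4.97 early and from 0.02 to 1.67 late.

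The thermogenic programme itself did not separate the stages. Brown thermogenic genes had a median of -0.38 over 17 members, with 14 lower and 0 at an unadjusted p under 0.05 in either direction. In 1 (Dio2) the late arrays lay wholly below the early ones, beside 2.56% of all genes. Ucp1 stood at 6.27, 5.25, 5.08 and 5.76 early and 6.06, 4.93 and 3.38 late (difference -0.80, SE 0.63). It was saturated on 3 of 10 LFC arrays, Week 0 among them, so those values are lower bounds and the difference is only as measured. Cidea, a lipid droplet protein of brown adipocytes, had a difference of -0.55 (SE 0.45) as measured. It was saturated on 4 of 10, Week 0 and Week 12 among them, so both stages hold a lower bound. The list's level went with the percentile of the arrays. It was 2.15, 2.14, 2.19 and 1.42 on the 4 arrays above 600 and -1.96 to -0.77 on the 6 others, early and late alike. Without Week 0 its median was 0.09, and without Week 12 it was -1.43.

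Other metabolic lists behaved alike. Lipogenesis genes had a median of -0.37 over 21 gene names and fatty acid oxidation genes one of -0.16 over 20, with 0 members at an unadjusted p under 0.05 in either. The citrate carrier Slc25a1 had a difference of -1.80 (SE 1.25), with 5.24 at Week 0 and 1.62 to 2.19 on the other early arrays. The respiratory chain (median -0.09, 28 genes), brown fat regulators (-0.30, 17 genes), insulin and IGF signalling (-0.14, 19 genes) and lipolysis and lipid droplets (0.11, 17 genes) had 0 members at that threshold. Plin2, listed as Adfp, coats lipid droplets and stood at 5.89, 6.04, 5.62 and 5.75 early and at 6.30, 6.86 and 6.21 late. Its probe was saturated on 4 of 10 LFC arrays, Week 0 and Week 12 among them, so the measured difference of 0.63 (SE 0.33) rests on lower bounds, and it was -0.036 under normexp.

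Cholesterol synthesis genes were lower late in 18 of 22 members, with a median of -0.79, while the middle stage lay above the early one (median 0.34). The list's level was 1.30, 1.75, 0.80 and 0.71 on the arrays above 600 in percentile (Weeks 0, 3, 9 and 12). On the other arrays it was -0.24, -0.08 and -0.44 early, -0.96 at Week 6, and -0.97 and -1.48 late. The part of array brightness was not tested. Srebf2, the transcription factor of the pathway, had a difference of -0.81 (SE 0.35), and Cyp51, a sterol demethylase, one of -1.55 (SE 0.70). Under normexp these genes were at 0.17 and 0.06, and 12 of 22 list members were lower.

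Skeletal muscle genes had the highest median of all lists, 1.31 over 20 members, with 16 higher late and 0 at an unadjusted p under 0.05. Week 12 was the highest array. The list's level was 4.07 there, 0.07 at Week 15 and -1.51 at Week 18, beside 1.01, 0.48, 0.82 and -3.96 early, and without Week 12 the median was -0.18. Myoglobin, listed as Mb, had a difference of 1.51 (SE 1.17) and the sarcomere gene Tcap one of 2.29 (SE 1.84), and over the 6 dim arrays these were -0.02 and -0.73. Immediate early genes, which respond within minutes to handling and stress, were lower in 17 of 17 members (median -0.54) with 0 at that threshold. Fosb stood at 2.02, 2.05 and 2.43 on Days 6 to 14, at -4.86 at Week 0, and at -3.81, 0.67 and 0.55 late. Without Week 12 the list's median was 1.0.

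Among immune cells and other fat genes, members with the smallest p of their lists are given. At an unadjusted p under 0.05, 1 of 20 macrophage, 1 of 13 white adipocyte and 0 of 19 insulin and IGF names were higher, beside 1.29% of all genes. In 2 of the macrophage names the late arrays lay wholly above the early ones, beside 2.3% of all genes. Cd209d, a C-type lectin of the macrophage list, was at -3.58, -4.72, -2.90 and -3.43 early and -1.05, -2.23 and -2.46 late (difference 1.75, SE 0.60). The monocyte chemokine receptor Ccr2 was wholly higher late as well (1.13, SE 0.65). The macrophage list as a whole was balanced, with 10 gene names higher and 10 lower (median -0.06), where Lyzs and Lyz2 were counted as separate names. Npr3, the natriuretic peptide clearance receptor, was higher late in the white adipocyte list (difference 0.93, SE 0.36), whose median was 0.30 over 13 genes. Igfbp4, which binds insulin-like growth factors, had a difference of 2.30 (SE 1.35). Medians of the remaining lists were -0.36 for adipocyte precursors, -0.30 for antigen presentation, -0.15 for the circadian clock, -0.06 for endothelium, 0.03 for cell cycle arrest and p53 targets and 0.12 for erythroid cells (7 genes tested).

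The course over all 10 LFC arrays was also fitted against the log2 of days on the diet. In limma, 0 genes passed, the smallest adjusted p was 0.323, and 710 had an unadjusted p under 0.05 (3.39% of genes tested). Slopes are log2 differences for each doubling of days. The 5 named genes with the smallest p and a slope above 0 were Igj (1.29, SE 0.23), Igh (1.15, SE 0.23), the RNA binding gene Lsm14b (0.55, SE 0.13), Tmem91 (0.41, SE 0.09) and Zfp185 (0.31, SE 0.08). Lsm14b stood at -1.45, -2.11, -1.76 and -0.34 early and reached 0.84 and 0.86 at Weeks 15 and 18. With a slope below 0, the 5 with the smallest p were Pgbd5 (-0.70, SE 0.11), Matn4 (-1.09, SE 0.18), Mfap4 (-0.93, SE 0.17), Spc24 (-0.66, SE 0.13) and the collagen Col26a1, listed as Emid2 (-1.15, SE 0.22). Col26a1 was well above background on 0 of 3 late arrays, and with the processed signal was at least 4.06-fold lower late than early. Its late minus early difference was -3.82, but over the alternatives it ran from -4.63 to -0.0013, so the bound depends on the processing. Genes known only by a locus or clone name were not named here.

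The middle stage was compared with both ends in the same fit. Against the early stage 0 genes passed in limma (515 at an unadjusted p under 0.05), and late against middle also gave 0 (369). The cell cycle list had a median of -1.03 from early to middle and -0.18 from middle to late. The interferon list was at -1.32 and 0.06 and the Schwann list at -1.1 and -0.17. Thermogenic genes went from 1.04 in the first step to -1.61 in the second, and cholesterol synthesis from 0.34 to -1.21. The middle arrays were uneven in both lists. At Weeks 3, 6 and 9 the thermogenic level was 2.14, -1.18 and 2.19, and the cholesterol synthesis level 1.75, -0.96 and 0.80. Weeks 3 and 9 were among the 4 arrays above 600 in percentile, and the part of array brightness in these steps was not tested.

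The HFC arrays gave the same comparison in other mice, with no array shared. Here 2 genes passed in limma (0.00954% of genes tested), Sult1e1 (3.64) and the phospholipase gene Plcd3 (4.16), named after its value was seen. Without Week 15, 746 passed, and without Day 6, Day 10, Week 0, Week 12 or Week 18, 0 did. Of the 270 genes higher late in LFC at an unadjusted p under 0.05, 254 (94.1%) were also higher in HFC, and of the 460 lower genes 328 (71.3%) were also lower. Over all genes tested, 57.8% had the same sign. The 75th percentile of the HFC arrays was 167, 625, 358 and 430 early and 120, 239 and 49.8 late. In HFC, 4596 genes had an unadjusted p under 0.05, of which 3554 were higher late and 1042 lower. With the log2 percentile as a covariate 2169 genes had such a p. The part of array brightness in these shares was not tested. The cell cycle list had a median of -1.36 in HFC with 25 of 29 members lower, and in 12 of them the HFC arrays did not overlap, beside 8.65% of all genes. Interferon genes had -1.04 (21 of 22 lower) and imprinted growth genes -0.69 (14 of 19 lower). Matrix genes were at -0.16 with 17 of 28 lower, beside -1.23 in LFC. Schwann genes were at 0.63 with 10 of 13 higher, beside -1.22 in LFC. Igh and Igj had HFC differences of 2.28 and 2.22, but their HFC stages overlapped. Igh stood at 4.32 on HFC Day 14, above Weeks 12 (3.75) and 18 (3.14). Igj was at 0.40 on HFC Day 14, above Weeks 12 (-0.45) and 18 (-0.18).

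The difference between the diets was tested as a product of diet and stage over the 20 LFC and HFC arrays, blocked by time point. In limma 0 genes passed (smallest adjusted p 0.0807, 3030 at an unadjusted p under 0.05, 14.5% of those tested), and array weights gave 737. Of the 3030 genes, 2764 had a lower late minus early difference in LFC than in HFC, and 266 a higher one. The late HFC arrays had low 75th percentiles (120, 239 and 49.8), and their part in this direction was not tested. Ptprt, a receptor phosphatase, had the smallest p, with a difference of -0.36 in LFC and 2.80 in HFC. The other named genes were the teneurin Tenm2, listed as Odz2 (-2.67 and 2.02), and the interleukin receptor chain Il22ra1 (0.66 and 5.15). Of 13 Schwann genes 8 had an unadjusted p under 0.05 in this test, as had 7 of 28 matrix genes and 3 of 29 cell cycle genes. None of them passed after adjustment.

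**Figure D3:**
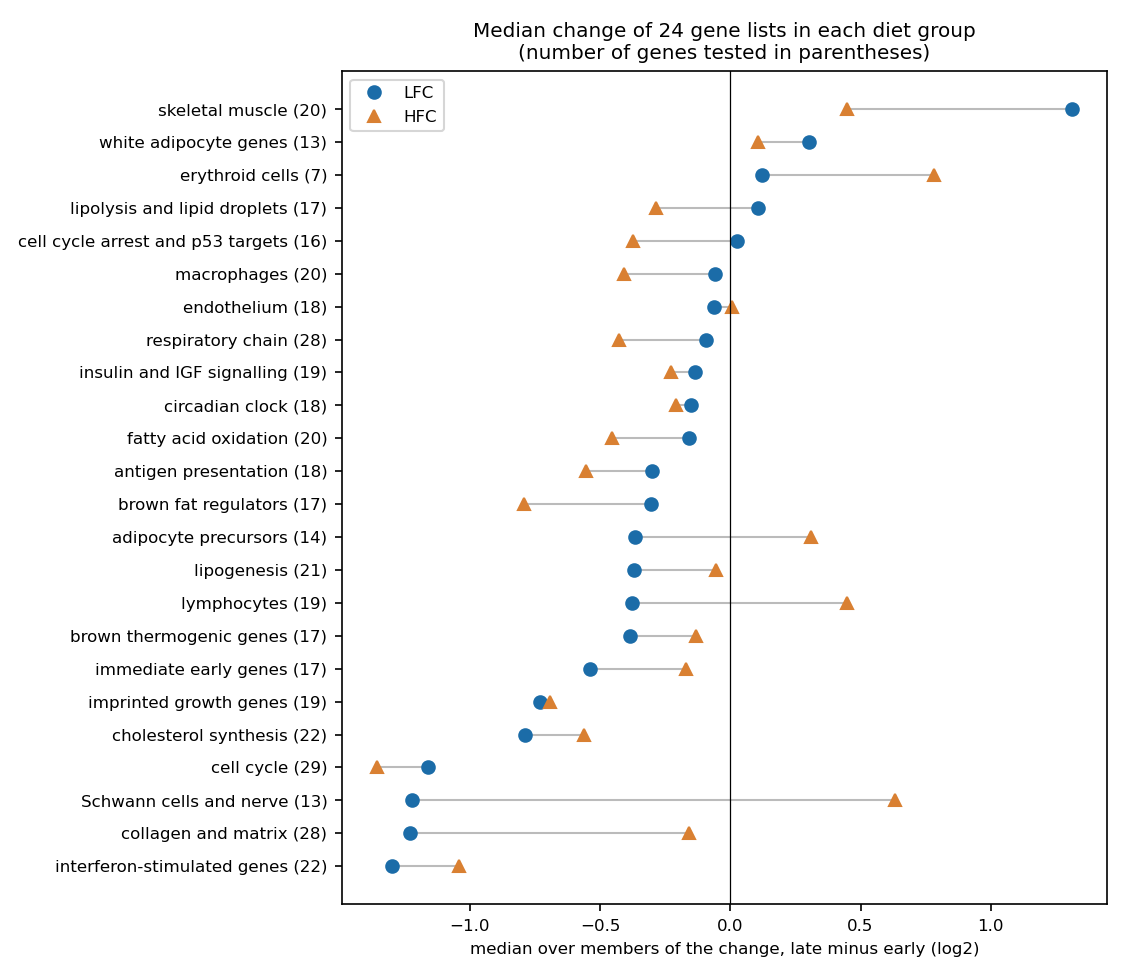
Median late minus early difference (log2) over the tested members of each of 24 gene lists in LFC (blue circles, 3 late against 4 early arrays) and HFC (orange triangles, the same time points), with the number of genes tested in parentheses. Interferon genes lie at -1.30 and -1.04 and cell cycle genes at -1.16 and -1.36, while Schwann cell and nerve genes lie at -1.22 in LFC and 0.63 in HFC.

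With the LFC and HFC arrays in one fit, a comparison chosen after the data were seen, 8 genes passed in limma. The fit held the diet as a term and the day as a random block. The only one higher late was Sult1e1 (0.00477% of genes tested), at 3.16 (SE 0.41, adjusted p 0.0060), with 2.72 in LFC and 3.64 in HFC. The 7 lower late (0.0334%) included Cenpf at -3.02 (SE 0.47, adjusted p 0.0358), 6720460F02Rik, now Pimreg (-2.71, SE 0.43, adjusted p 0.0358), Spc24 (-2.24), Plk1 (-1.45), Cdca8 (-1.84) and Mpa2l (-2.52), the last 4 each with an adjusted p of 0.0472. Cdca8 is a subunit of the chromosomal passenger complex, and Mpa2l, now Gbp6, is an interferon-inducible GTPase. On the LFC arrays Cdca8 stood at -0.01, 0.34, 0.22 and -0.55 early and at -1.22, -1.45 and -1.56 late. For Mpa2l these were 2.48, 0.61, 1.55 and 1.42 against -1.46, 0.20 and -0.98. Plk1, Cdca8 and Mpa2l were well above background on every LFC array. The calls depended on single time points and on the background correction: without Day 6, Day 10 or Week 0, and under normexp, 0 genes passed, and without Day 14, Week 12, Week 15 or Week 18 these were 2, 22, 4 and 1. These genes are named after their values were seen. Without the block for the day, 107 passed. Under normexp Spc24 (0.55) and Plk1 (0.00) were not lower, while Mpa2l was at -1.57 and Cdca8 at -0.51.

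**Figure D4:**
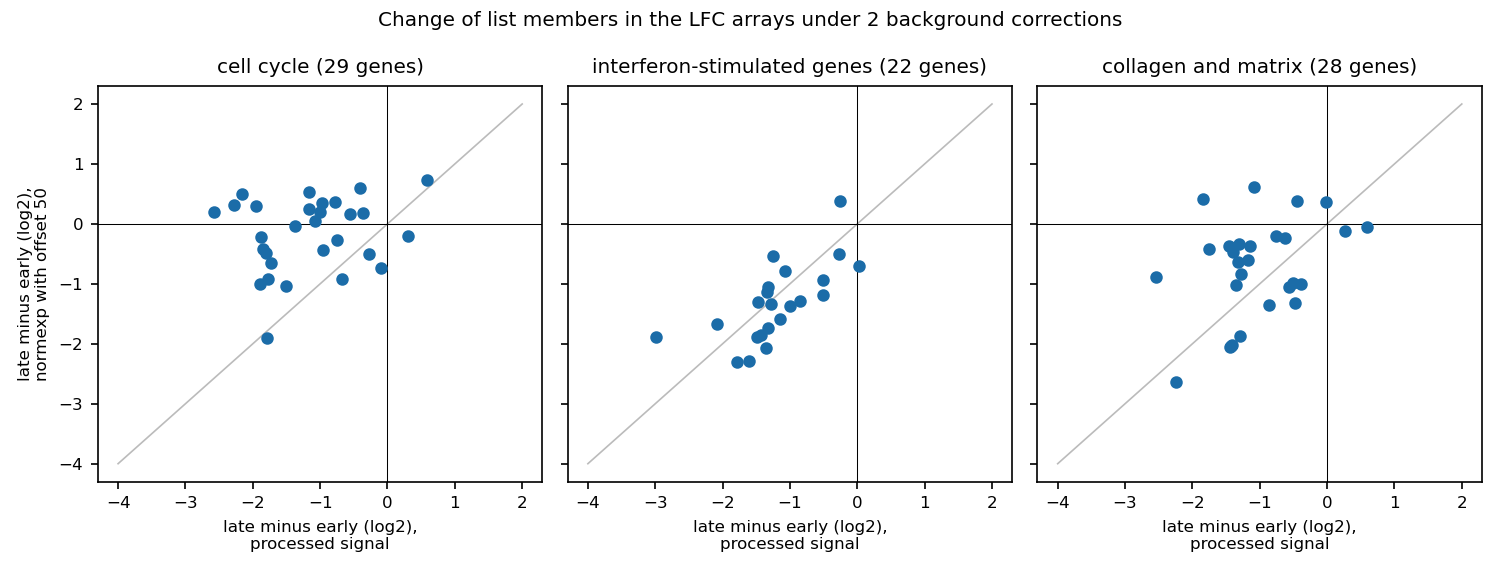
Late minus early difference (log2, 3 against 4 LFC arrays) of each member of 3 gene lists with the processed signal (x axis) and with normexp and an offset of 50 (y axis), each point a gene and the grey line marking equal values. Of 29 cell cycle genes 27 are below 0 on the x axis and 15 on the y axis, whereas 21 of 22 interferon genes are below 0 on both axes.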

How the data were processed

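Total RNA of brown adipose tissue was labelled with Cy3 and hybridised to Agilent 1-colour mouse arrays. The deposited scanner files hold intensity values per spot. Their processed signal had background and spatial trend removed by the authors' scanner software, with no scaling from array to array (Feature Extraction 9.1 per the labels, 10.5.1.1 per the file headers). The deposited flags for background, saturation and outlier spots were used as they stand. Outlier spots were left out, so 76 of the tested genes lack a value on an early or late LFC array. The authors' table of fold changes against LFC arrays and the Kal-1 arrays were not used here (0 sample columns were left unmapped).

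Signals were put on the log2 scale minus the 75th percentile of each array. For each of 29411 gene names the probe with the highest LFC mean represented it. The 20959 genes whose probe exceeded background clearly on 3 or more LFC arrays entered the tests. Of 40628 probes, 33118 matched a RefSeq gene name (GRCm38.p6). Tests used limma 3.58.1 in R 4.3.3, two-sided, with Benjamini-Hochberg adjustment and a threshold of 0.05, with 3 stages over 10 LFC arrays. For trends, weeks were set to 14 plus 7 days per week. P-values measure the spread between time points. The few arrays limit precision. Each LFC array had its own slide and scan day, so neither could be a block. Steps were tested on simulated data.

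The stages, the 24 gene lists (448 genes tested) and the rules were chosen with earlier results of these data known. Named genes were those that passed, filled up to 20 by the smallest p, the 3 smallest p in each list (the text gives a part), 5 trend genes in each direction and 3 for the diets. A few genes that these rules pick are not reported here. Other names are said to be chosen after their values were seen. A level below background in a whole stage is given as a bound against the lowest signal called above background. Alternatives were quantile normalization, normexp (offset 50), other filters on dim probes, a brightness covariate, array weights, Day 14 and Week 0 averaged, and leaving out each time point.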

Additional observations from a re-analysis of the deposited data

Results flagged for a closer look

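On the early LFC arrays, 8 of the 60 named genes held 1 value far from the other 3 (Dixon's test, where chance marks about 1 group in 20), and in each it was the Week 0 array. Fosb was at -4.86 there and at 2.02 to 2.43 on the others, and Egr2 at -2.85 beside 3.56 to 4.67. Dio2 was at 1.96 beside -2.79 to -2.21, Slc25a1 at 5.24 beside 1.62 to 2.19, and Gnas at 3.86 beside 3.06 to 3.13. Cnp was at -1.37 beside 2.03 to 2.52, Bub1b at -4.18 beside -3.0 to -2.81, and Mb at -1.58 beside -0.51 to -0.30. The Week 0 array also had the highest 75th percentile of the LFC arrays (1209), and its part in these values was not tested.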

How the results depend on the processing

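The comparison of late with early LFC arrays called 0 genes under every alternative except array weights, which called 53. The trend called 0 except with the log2 percentile as a covariate, where 1 gene passed, and the steps through the middle stage called 0 throughout. The difference between the diets called 0 except with array weights (737). In HFC, 2 genes passed, 53 with quantile normalization, 1024 with array weights, and 0 with normexp, with the percentile as a covariate, with no filter on dim probes, or with Day 14 and Week 0 averaged. Leaving out each time point gave 0 to 746 genes. With both diets in one fit, a choice made after the data were seen, 8 genes passed, 30 with quantile normalization, 504 with array weights, 107 without the block for the day, 2 with the covariate, and 0 with normexp, with Day 14 and Week 0 averaged, or among genes well above background on all 10 LFC arrays. Leaving out each time point gave 0 to 22. Normexp turned the sign of these late minus early LFC differences: Aurkb 0.49, Top2a 0.20, Nol9 0.15, Matn4 0.15, Ptprt 0.63, Bub1b 0.31, Hpcal4 0.18, Adfp -0.036, Magee1 0.51, Pgbd5 0.38, Odz2 0.25, Efnb3 0.28, Mxd3 0.48, Spc24 0.37, Srebf2 0.17, Cyp51 0.062, Gab1 0.022, Brca1 0.38 and Cpz 0.41. With both diets it turned Spc24 (0.55) and Plk1 (0.0045). Over the 6 dim LFC arrays, also chosen after the data were seen, Mb was -0.023 and Tcap -0.73. Leaving out each time point, Egr2 ranged from -2.71 to 0.66, Fosb from -3.03 to 0.20, Ptprt from -1.26 to 0.40 and Il22ra1 from -0.36 to 1.42. In all, 635 of 660 values of named genes and 223 of 275 list medians kept their sign. The cause was not tested. No paired analysis was possible because, within LFC, the stages hold different time points and share no replicate number. Between the diets, arrays were blocked by time point, and without that block the diet difference also called 0 genes. Signal over background limits the division and repair genes, most of which were dim on late arrays.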
